A study of Mus musculus with 6 samples.

Results

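The genes described here encode the membrane fusion machinery of mouse cone photoreceptors: SNARE proteins, synaptotagmins and the proteins that regulate fusion. They were taken by gene symbol, as the syntaxins, syntaxin-binding proteins, VAMPs, SNAP-25 relatives, synaptotagmins and synaptotagmin-like proteins, NSF and its attachment proteins, SV2, Munc13 and Doc2 proteins, and the Vti1, Bet1, Gosr, Sec22, Ykt6 and Use1 SNAREs. The genes so chosen and described here are 56 of the 9720 protein-coding genes in the table, and complexins were not part of the set. One match, Snap91, encodes the clathrin adaptor AP180 and carries a SNARE-like symbol only. It is described apart, but the counts, medians and sums over the set include it. Stx1a and Sv2c were looked for by name and were not among the genes in the table.

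SNARE proteins drive the merging of membranes by zipping a vesicle SNARE such as VAMP2 together with target SNAREs such as a syntaxin and SNAP-25. Munc13 proteins guide that assembly, synaptotagmins couple it to calcium, and NSF with its attachment proteins takes the spent complex apart so that it can be used again. Cones release glutamate continuously in darkness from ribbon synapses, where syntaxin 3 is the syntaxin known for vesicle release, and the same protein family also serves the heavy membrane traffic through the endoplasmic reticulum, the Golgi and towards the outer segment.

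Cones came from adult mice on a mixed C57BL/6 background, kept in 12 h of light and 12 h of dark and aged 60 to 80 postnatal days by one part of the label and 2 to 6 months by the other. The 3 control libraries had the genotype HRGPcre;Bmal1f/+;Z/EG and the 3 knockout libraries HRGPcre;Bmal1f/f;Z/EG. Both groups thus carried the Cre transgene HRGPcre, which the series text calls cone-specific, and the Z/EG reporter whose eGFP was used to sort the cells, and the controls, written as WT in the series text, had 1 floxed Bmal1 copy. No label tells whether a library pools animals, so p-values measure sample-to-sample spread only, and that spread may be technical. The hour of collection was not stated either. Arntl, the gene that encodes BMAL1, measured 2.9998, 2.60 and 3.27 FPKM in control and 3.37, 2.28 and 3.48 in knockout, with overlapping groups. A value over the whole gene does not single out the floxed part, so the deletion is taken from the labels alone, and knockout stands below for libraries labelled so.

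All 11 cone markers on the list were present, led by Opn1sw and Gngt2, at 1464 and 1106 FPKM on average (fragments per kilobase of transcript, scaled for library size). Their sum was 4190 FPKM in control 1 and 5742 to 7052 FPKM in the other 5 libraries. Opn1sw alone of the 11 did not overlap between groups, higher in the knockout with a log2 difference of 1.01 (unadjusted p = 0.008, adjusted p = 0.65, limma). Rod markers were present too, 12 of 12, led by Pde6g and Sag at 760.3 and 701 FPKM. Their summed level was 2909 to 3559 FPKM in control and 2417 to 3491 in knockout libraries, yet 8 of the 12 differences were positive and 4 negative. Reep6, Cnga1 and Nr2e3 lay wholly higher in the knockout, with log2 differences of 0.51, 0.28 and 0.33. None passed (unadjusted p = 0.070, 0.21 and 0.18, adjusted p = 0.90, 0.96 and 0.94, limma), and the other rod markers overlapped. Bipolar markers, 10 of 12 present and led by Otx2 and Lrtm1, summed to 87.9 to 125 FPKM in control and 98.2 to 111 in knockout. Gng13 of that list lay wholly lower in the knockout, 2.39-fold in the means (unadjusted p = 0.0062, adjusted p = 0.61, limma), and the other bipolar markers overlapped. Müller glia markers, 7 of 10 present and led by Car2 and Clu, summed to 91.8 to 120.2 and 101 to 111 FPKM. Clu and Apoe of that list lay wholly lower in the knockout, 1.40-fold and 1.75-fold in the means (unadjusted p = 0.055 and 0.016, adjusted p = 0.90 and 0.77, limma), and the other 5 overlapped. Amacrine markers, 2 of 10 present (Slc6a9 and Pax6), summed to 8.98 to 11.2 and 5.01 to 8.15 FPKM. The ganglion cell list, 3 of 10 present and led by Stmn2 and Nefl, summed to 23.9 FPKM in control 1 and to 2.07 to 2.99 FPKM in the other 5 libraries. Of 6 microglia markers only C1qb was present, at up to 1.47 FPKM, and no horizontal cell marker of 4 was. The part of these other cells in the levels and differences below was not tested. Depth is unknown, because FPKM keep no read total.

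Fusion genes ranged from 0.283 FPKM for Syt10 to 401 FPKM for Snap25 on average. Of the 56, 4 averaged at least 100 FPKM over the 6 libraries, which is 7.14% of the set against 1.06% of all genes in the table. These were Snap25, Sv2b, Vamp2 and Stx3, and together they held 59.4% to 70.0% of the summed FPKM of the set in each library. At the other end, 39 averaged under 10 FPKM and 6 under 1 FPKM. The median over the set was 5.28 FPKM, against 3.79 FPKM over the table. The plot of levels in every library shows the steep order, and that the 2 groups lay close to each other for most of the genes named here.

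**Figure D1:**
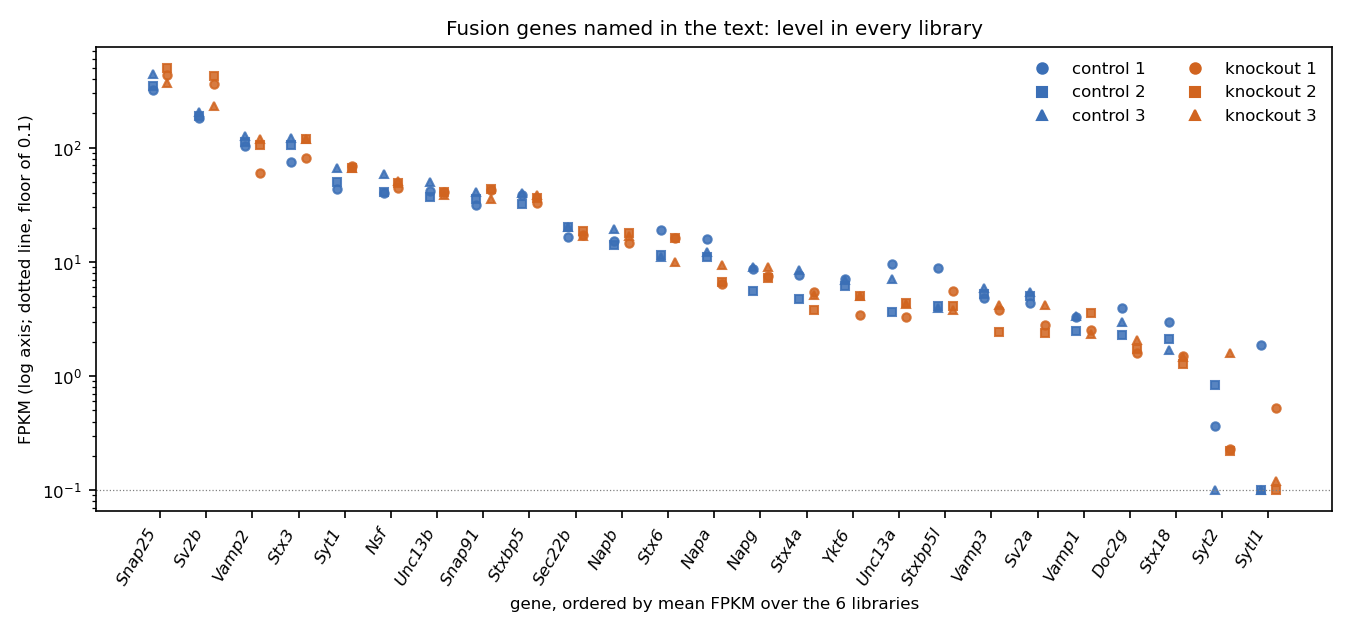
FPKM on a log axis for the 25 fusion genes chosen by the naming rule, ordered by their mean over 6 libraries; each point is 1 library, blue for control and orange for knockout. Snap25 leads at 318 to 498 FPKM, while Syt2 and Sytl1 reach the floor of 0.1 FPKM in some libraries.

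Knockout and control cones were compared to ask which of these transcripts differ where Bmal1, the activator of the circadian clock, is labelled as deleted from cones. None of the 50 fusion genes that averaged at least 1 FPKM passed an adjusted p of 0.05 in limma. Of the 8627 genes tested, 0.104% did, 0.0464% higher and 0.058% lower in the knockout. The smallest adjusted p was 0.653, for Napa. At an unadjusted p under 0.05 there were 6 fusion genes, or 12%, against 5.49% of all genes tested: Sv2b was higher in the knockout, 2% of the set against 1.53% of all genes, and Napa, Sv2a, Doc2g, Vamp3 and Ykt6 were lower, 10% against 3.96%. Without knockout 1 or without knockout 2 the count was 1, Napa, where 3.3% and 3.12% of all genes had such a p. The differences themselves kept their direction there, from -0.58 for Vamp3 to -0.34 for Ykt6 among the other lower genes without knockout 1, and from -0.57 for Ykt6 to -0.34 for Vamp3 without knockout 2. Sv2b stood at 0.73 and 0.60. The median log2 difference was -0.02 over the 50 and -0.02 over all genes tested. Differences were taken after log2(FPKM + 1), so folds of the lowest genes come out too small. There were 24 positive differences, or 48%, and 26 negative, or 52%, against 47.4% and 52.6% of all genes. In such bulk samples, fewer cells that express a gene and less RNA per cell cannot be told apart.

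The ranges of the 3 control and 3 knockout libraries did not overlap for 9 of the 50, or 18%, against 9.39% of all genes tested. Syt1 and Sv2b lay wholly higher in the knockout, 4% of the fusion genes tested against 3.52% of all. Stx18, Vamp3, Ykt6, Bet1, Napa, Doc2g and Sv2a lay wholly lower, 14% of the fusion genes tested against 5.87% of all. For 42 of the 50 genes the 95% interval of the log2 difference lay within -1 to 1, so a change of 2-fold on that scale was outside it. The bounds reached -1.24 for Napa and 1.42 for Sv2b. The plot of differences by role shows those 2 genes at its extremes.

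**Figure D2:**
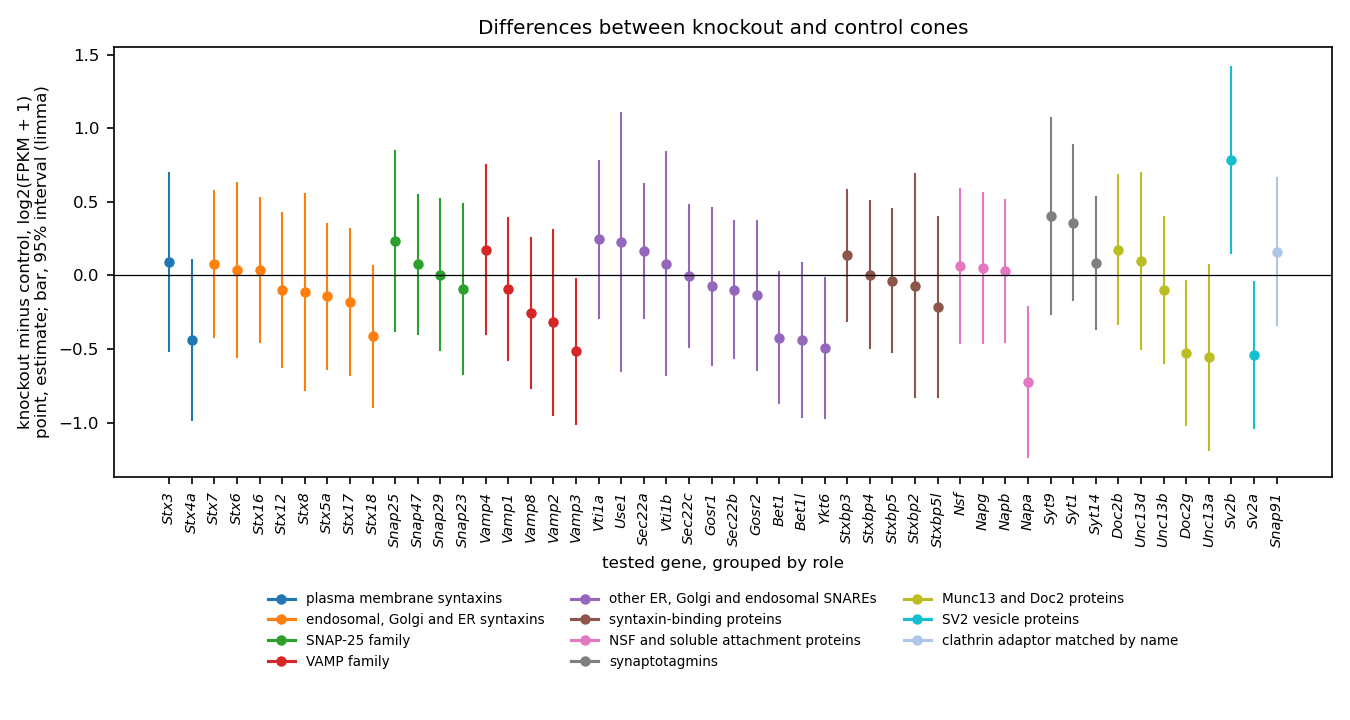
Log2 difference, knockout minus control, with its 95% interval from limma (3 libraries per group) for the 50 fusion genes tested, coloured by role. Napa at -0.73 and Sv2b at 0.79 lie farthest from 0, and the intervals of all genes but Napa, Sv2b, Sv2a, Doc2g, Vamp3 and Ykt6 include 0.

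Stx3, Snap25 and Vamp2, which encode synaptic SNAREs, were the most abundant members of their families. Stx3, the syntaxin of the photoreceptor plasma membrane, measured 74.6, 105 and 122 FPKM in control and 81.4, 118 and 119 in knockout. The 2 groups covered nearly the same range, and control 1 was lowest. The log2 difference was 0.09 ± 0.28 (SE), with a 95% interval from -0.52 to 0.69 (adjusted p = 0.9996, limma). Snap25, the membrane-anchored partner of syntaxin in the synaptic SNARE bundle, measured 318, 345 and 445 FPKM in control and 432, 498 and 369 in knockout. The groups overlapped, and the log2 difference was 0.23 with an interval from -0.38 to 0.85. Vamp2, the vesicle SNARE synaptobrevin 2, measured 103, 111 and 127 FPKM in control and 60.4, 105 and 118 in knockout. Knockout 1 was the low library, and without it the log2 difference moved from -0.32 to -0.03.

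The other genes of these families were lower in level, the synaptic Vamp1 among them. Stx4a, which encodes syntaxin 4 of general plasma membrane exocytosis, measured 7.74, 4.73 and 8.54 FPKM in control and 5.49, 3.77 and 5.18 in knockout. The groups overlapped (log2 difference -0.44 ± 0.25, adjusted p = 0.91, limma). Stx2 averaged 0.875 FPKM and was below the level for testing. Snap47, Snap23 and Snap29, SNAP-25 relatives found in most cells, averaged 7.54, 4.88 and 1.83 FPKM, with log2 differences of 0.07, -0.09 and 0.01. Vamp1, another synaptic vesicle VAMP, measured 3.27, 2.49 and 3.36 FPKM in control and 2.52, 3.58 and 2.32 in knockout, with overlapping groups. Vamp4, of the trans-Golgi network, and Vamp8, of late endosomes, averaged 17.9 and 3.70 FPKM with log2 differences of 0.17 and -0.25. Vamp4 was lowest in control 1, at 10.8 FPKM, and its difference was -0.11 without that library.

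Vamp3, which encodes cellubrevin, a VAMP of recycling endosomes, stood apart between the groups. It measured 4.79, 5.26 and 5.92 FPKM in control and 3.83, 2.44 and 4.15 in knockout. Every knockout library lay below every control library, yet the gene did not pass (log2 difference -0.52 ± 0.23, unadjusted p = 0.042, adjusted p = 0.90, limma). On GRCm38, Vamp3 occupies bases 151047300 to 151057963 of chromosome 4, minus strand. Its end is 2634 bases from the start of the clock gene Per3, on the same strand, which was among the 9 genes called over the table. The next nearest to a called gene was Stx8, 277202 bases from Gas7, and its log2 difference was -0.11 with overlapping groups.

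Endosomal, Golgi and endoplasmic reticulum syntaxins were 8 in number, from 1.84 to 14.01 FPKM on average, and none passed. Their median log2 difference was -0.10, with 3 positive and 5 negative. Stx6, a syntaxin of the trans-Golgi network and endosomes, led them at 19.0, 11.5 and 11.1 FPKM in control and 16.3, 16.1 and 10.1 in knockout. The groups overlapped, and the log2 difference of 0.04 turned to -0.091 without control 3. Stx18, a syntaxin of the endoplasmic reticulum, measured 2.98, 2.09 and 1.71 FPKM in control and 1.49, 1.28 and 1.48 in knockout. The groups were apart by a narrow gap (log2 difference -0.41 ± 0.22, adjusted p = 0.91, limma). Stx18 shares 908 exonic bases with Gm42858 and 574 with Nsg1 on the opposite strand, and no source used here tells whether counting was stranded. Stx8, Stx16, Stx5a, Stx12, Stx7 and Stx17 averaged 10.5, 9.998, 8.53, 7.85, 5.46 and 1.88 FPKM, with overlapping groups in each.

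The 11 other SNAREs of the endoplasmic reticulum, Golgi and endosomes averaged 1.07 to 18.3 FPKM, with 4 positive and 7 negative differences and a median of -0.07. Sec22b, a vesicle SNARE of traffic between the endoplasmic reticulum and the Golgi, led them at 16.4, 20.1 and 20.3 FPKM in control and 17.2, 18.7 and 16.9 in knockout. It was among the steadiest genes of the set, with an SD of 9.24% of its mean over the 6 libraries. Ykt6, a lipid-anchored SNARE without a membrane span that serves the Golgi and autophagosomes, measured 7.06, 6.09 and 6.96 FPKM in control and 3.44, 5.06 and 5.06 in knockout. Every knockout library lay lower (log2 difference -0.49 ± 0.22, unadjusted p = 0.043, adjusted p = 0.90, limma). The gene is on chromosome 11, plus strand, bases 5955693 to 5967780.

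Bet1, a SNARE of traffic from the endoplasmic reticulum to the Golgi, was also apart, at 3.09 to 3.85 FPKM in control and 2.13 to 2.61 in knockout (log2 difference -0.42, adjusted p = 0.90, limma). Its relative Bet1l averaged 1.07 FPKM, the lowest level tested in the set, with a log2 difference of -0.44 and overlapping groups. Gosr2, Gosr1, Sec22c and Sec22a, which serve the early secretory pathway, averaged 5.75, 1.62, 3.71 and 2.24 FPKM with log2 differences of -0.14, -0.07, -0.00 and 0.16. Use1 and Vti1b varied most with 1 library, control 1. Use1, a SNARE of retrograde traffic to the endoplasmic reticulum, measured 4.06 FPKM there and 10.1 to 16.5 FPKM in the other 5, and Vti1b, an endosomal SNARE, measured 2.30 FPKM there and 3.81 to 7.88 FPKM in the other 5. Without control 1 their log2 differences moved from 0.23 to -0.36 and from 0.08 to -0.31. Vti1a averaged 4.09 FPKM with a log2 difference of 0.24, which was 0.024 without control 1.

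Proteins that bind syntaxins were led by Stxbp5, which encodes tomosyn, a competitor of VAMP for syntaxin and SNAP-25. It measured 38.9, 32.1 and 39.9 FPKM in control and 32.9, 36.4 and 38.4 in knockout. The groups overlapped, the SD over the 6 libraries was 8.92% of the mean, and the log2 difference was -0.04 (interval from -0.52 to 0.45). Stxbp5l, tomosyn 2, measured 8.83 FPKM in control 1 and 3.82 to 5.50 FPKM in the other 5 libraries, so its log2 difference of -0.21 became 0.11 without control 1. Stxbp4, Stxbp3 and Stxbp2 averaged 5.80, 4.61 and 1.91 FPKM, and their groups overlapped. None of these 5 genes passed.

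The smallest p of the set belonged to Napa, 1 of 4 genes here that serve the recycling of spent SNARE complexes. Nsf, the ATPase that pulls the complexes apart, measured 40.3, 41.1 and 59.0 FPKM in control and 44.6, 49.0 and 51.3 in knockout, with overlapping groups and a log2 difference of 0.06 (interval from -0.46 to 0.59). Napa, which encodes alpha-SNAP, the attachment protein that brings NSF to the complex, measured 15.9, 11.1 and 12.1 FPKM in control and 6.41, 6.67 and 9.43 in knockout. All knockout libraries lay below all control libraries, and the means of 13.03 ± 2.54 and 7.50 ± 1.68 FPKM (SD, n = 3 each) were 1.74-fold apart. The log2 difference was -0.73 ± 0.24 with an interval from -1.24 to -0.21, and it did not pass (unadjusted p = 0.0093, adjusted p = 0.65, limma). With single libraries left out, the difference ran from -0.88 to -0.58 and the adjusted p from 0.40 to 0.9998 in limma. Napa occupies bases 16098458 to 16117975 of chromosome 7 on the plus strand.

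The other attachment proteins did not share that pattern of libraries. Napb, the brain form beta-SNAP, measured 15.1, 14.05 and 19.3 FPKM in control and 14.7, 18.0 and 16.7 in knockout. Napg, gamma-SNAP, measured 8.71, 5.56 and 8.93 FPKM in control and 7.60, 7.16 and 9.01 in knockout. The groups overlapped for both, with log2 differences of 0.03 and 0.05 and intervals from -0.45 to 0.51 and from -0.46 to 0.56.

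BMAL1 binds with CLOCK to E-boxes, whose canonical form is CACGTG, a motif that reads the same on both strands. Windows of 250 bases before gene starts in RefSeq (GRCm38.p6) were searched for it, and 49 of the 56 fusion genes had such a window. Of these, 9 held the motif in any of their windows, or 18.4%, against 10.3% of 7469 table genes counted likewise. Of all 32851 windows counted singly, 6.02% held it, a share per window that is not like the shares per gene. The 9 genes were Napa, Nsf, Sec22c, Stx6, Stxbp2, Sv2b, Syt14, Unc13b and Vamp4. Napa held 3 copies, 185, 136 and 29 bases before the RefSeq start, the last of them inside the gene as GENCODE draws it. Of the 7469 genes, 13 held 3 or more. The log2 differences of the 9 ran from -0.73 for Napa to 0.79 for Sv2b, with 5 positive and 4 negative and a median of 0.04, against a median of -0.09 over the 35 tested fusion genes whose windows held none. A motif match is a description of the letters and does not show that BMAL1 binds there.

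The stretch before the Napa start is shown because Napa was the fusion gene with the smallest p and the most E-box copies. It covers chr7:16098330-16098457 on the plus strand, ends just before the first Napa exon in GENCODE vM21, and holds the first 2 copies, in capitals.
Napa upstream: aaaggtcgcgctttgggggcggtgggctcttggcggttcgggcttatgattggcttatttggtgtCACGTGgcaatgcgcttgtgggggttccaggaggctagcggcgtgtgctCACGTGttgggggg
The third Napa copy and the single copies of 4 other genes given per library are shown with 12 bases on either side, so that the flanks can be compared. Each is read 5′ to 3′ on the strand of its gene, with the E-box in capitals. The Sv2b copy lies 193 bases before an alternative start, inside the gene as GENCODE draws it.
Napa, chr7:16098539-16098568, plus strand: gttcgcagggttCACGTGgggtggcaggcc
Nsf, chr11:103954213-103954242, minus strand: ccattaaaaggcCACGTGgccagctttgtg
Stx6, chr1:155158606-155158635, plus strand: ggcgatctgggtCACGTGagcctgagtgcg
Sv2b, chr7:75302785-75302814, minus strand: tggaaagagaaaCACGTGgaaaccaaaaaa
Unc13b, chr4:43058708-43058737, plus strand: ggaaactccacgCACGTGggaggagcaaaa

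Synaptotagmins were dominated by Syt1, the fast calcium sensor of synaptic vesicles. It measured 43.3, 50.2 and 65.8 FPKM in control and 69.1, 66.2 and 66.8 in knockout. The groups were apart, though control 3 and the lowest knockout library nearly met, and the spread was wider among controls (SD of 11.5 against 1.58 FPKM). The log2 difference was 0.36 ± 0.24 and did not pass (adjusted p = 0.93, limma). Syt14 and Syt9, the other 2 tested, averaged 4.51 and 3.54 FPKM with log2 differences of 0.08 and 0.40, and Syt9 was lowest in control 1, at 1.26 FPKM against 3.19 to 4.74 FPKM elsewhere. Its difference was 0.029 without that library.

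The remaining synaptotagmins were near the floor of the table, so no fold is given for them. Syt2, a sensor known from bipolar cells in the retina, measured 0.364, 0.834 and 0.10 FPKM in control and 0.231, 0.220 and 1.60 in knockout. Syt3 averaged 0.811 FPKM. Syt5 measured 1.81 FPKM in knockout 1 and at most 0.202 FPKM in the other 5 libraries. Syt10 measured 1.196 FPKM in control 1 and was listed at 0.10 in the other 5. Sytl1, the single synaptotagmin-like gene of the set, measured 1.88 FPKM in control 1, 0.528 FPKM in knockout 1 and at most 0.119 FPKM in the other 4. Syt2, Syt5, Syt10 and Sytl1 each exceeded 1 FPKM in 1 library only.

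Priming genes were led by Unc13b, which encodes Munc13-2, the Munc13 form known from photoreceptor ribbon synapses. It measured 42.2, 36.9 and 50.6 FPKM in control and 40.7, 40.9 and 38.5 in knockout. All knockout libraries fell inside the control range (log2 difference -0.10, interval from -0.59 to 0.40). Unc13a, which encodes Munc13-1 of conventional synapses, measured 9.51, 3.61 and 7.02 FPKM in control and 3.30, 4.35 and 4.30 in knockout. Control 1 was highest, control 2 lay among the knockouts, and the log2 difference was -0.56 ± 0.29 (adjusted p = 0.90, limma) and -0.29 without control 1. Unc13a shares 495 exonic bases with Colgalt1 on the opposite strand. Unc13d, which primes secretory granules in blood cells, averaged 4.28 FPKM with a log2 difference of 0.10.

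Doc2 proteins are relatives of the synaptotagmins. Doc2b averaged 21.2 FPKM with a log2 difference of 0.18 and overlapping groups, and 0.024 without control 1. Doc2g measured 3.96, 2.29 and 2.98 FPKM in control and 1.58, 1.73 and 2.08 in knockout. The groups were apart without passing (log2 difference -0.53 ± 0.23, unadjusted p = 0.037, adjusted p = 0.90, limma). Doc2g, at bases 4003313 to 4007005 of chromosome 19 (plus strand), shares 1926 exonic bases with the gene model Gm49405 on its own strand, so how reads were split between them is uncertain.

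SV2 proteins are vesicle glycoproteins that act in priming, and SV2B is the form known from photoreceptor terminals. Sv2b measured 181, 188 and 204 FPKM in control and 358, 428 and 234 in knockout. All knockout libraries lay above all controls, by 1.78-fold in the means of 191 ± 11.7 and 340.0 ± 98.2 FPKM (SD, n = 3 each), but the knockout libraries were far from each other. The log2 difference was 0.79 ± 0.29 (interval from 0.16 to 1.42, unadjusted p = 0.019, adjusted p = 0.81, limma), and it ran from 0.60 to 1.03 with single libraries left out. Sv2a, the widely expressed paralog, measured 4.37, 4.98 and 5.41 FPKM in control and 2.79, 2.38 and 4.22 in knockout. It lay lower in every knockout library (log2 difference -0.54 ± 0.23, unadjusted p = 0.036, adjusted p = 0.90, limma). Sv2b occupies bases 75114894 to 75309262 of chromosome 7 (minus strand) and Sv2a bases 96181151 to 96195521 of chromosome 3 (plus strand).

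The clathrin adaptor gene Snap91, whose protein retrieves vesicle membrane including VAMP2 after fusion, measured 31.6, 35.8 and 40.7 FPKM in control and 42.9, 43.1 and 35.2 in knockout. The groups overlapped, with a log2 difference of 0.16.

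Within 7 families, the share of the summed FPKM held by the leading paralog was compared per library, because such a share does not move with library scaling. The leading paralog held most of its family in 6 of them. Snap25 held 96.2 ± 0.638% of its family in control and 96.8 ± 0.431% in knockout (mean ± SD, n = 3 each), and Stx3 92.4 ± 1.97% and 94.8 ± 1.92%. Syt1 held 84.7 ± 2.25% and 86.2 ± 1.48%, Unc13b 80.1 ± 6.09% and 82.6 ± 2.68% of the Munc13 proteins, and Vamp2 79.6 ± 2.53% and 75.9 ± 6.85%. The attachment proteins were the exception, with Napb at 43.9 ± 5.18% in control and 51.7 ± 4.52% in knockout, a difference of 7.82 points. Control 3 at 47.9% and knockout 3 at 47.5% overlapped there (two-sided exact permutation p = 0.2, adjusted 0.47 over 7 families).

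The share of Sv2b was the one that did not overlap. It was 97.6%, 97.4% and 97.4% of Sv2a and Sv2b together in control and 99.2%, 99.4% and 98.2% in knockout. The difference of 1.47 points gave a two-sided exact permutation p of 0.1, which is the smallest that 3 against 3 libraries allow, and 0.47 after adjustment over the 7 families. No share could therefore pass a threshold of 0.05 in this design. The plot of paralog shares shows the knockout libraries of Sv2b above the controls in a family that was almost wholly Sv2b in both groups.

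**Figure D3:**
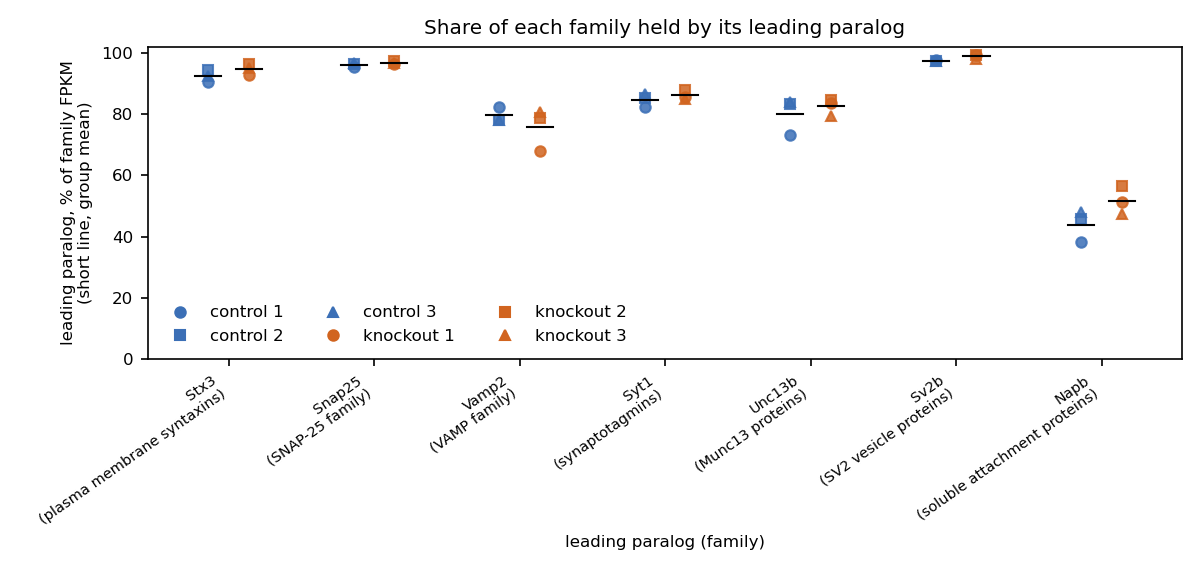
Percent of a family's summed FPKM held by its leading paralog in each library (points; blue control, orange knockout; short lines are means of 3) for 7 families. All families but the attachment proteins, led by Napb at 43.9% and 51.7%, are held mostly by 1 gene in both groups.

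Single libraries moved many of these genes. Control 1 was the lowest of the 6 libraries for 18 of the 50 fusion genes tested, a share a little below the 39.2% of all genes tested. It was the highest for 12 of the 50, a larger share than the 15.6% of all genes tested. Control 3 was the highest for 20, and over all genes it was the highest for 34.8%. Summed over the set, the level was 1139 FPKM in control 1, 1218 in control 2 and 1462 in control 3, and 1421, 1642 and 1341 FPKM in knockouts 1 to 3. That was 1.14% to 1.34% of the control libraries' FPKM sums and 1.25% to 1.61% of the knockout sums. The 12 genes highest in control 1 were Stx6, Stx17, Stx18, Snap23, Ykt6, Stxbp2, Stxbp5l, Napa, Syt14, Unc13a, Unc13d and Doc2g. That library also had the lowest summed cone markers and held the ganglion cell marker Stmn2 at 21.1 FPKM, and the part of either in those values was not tested. Without control 1 the log2 difference of Napa was -0.58. The plot of deviations by library shows these genes along the row of control 1.

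**Figure D4:**
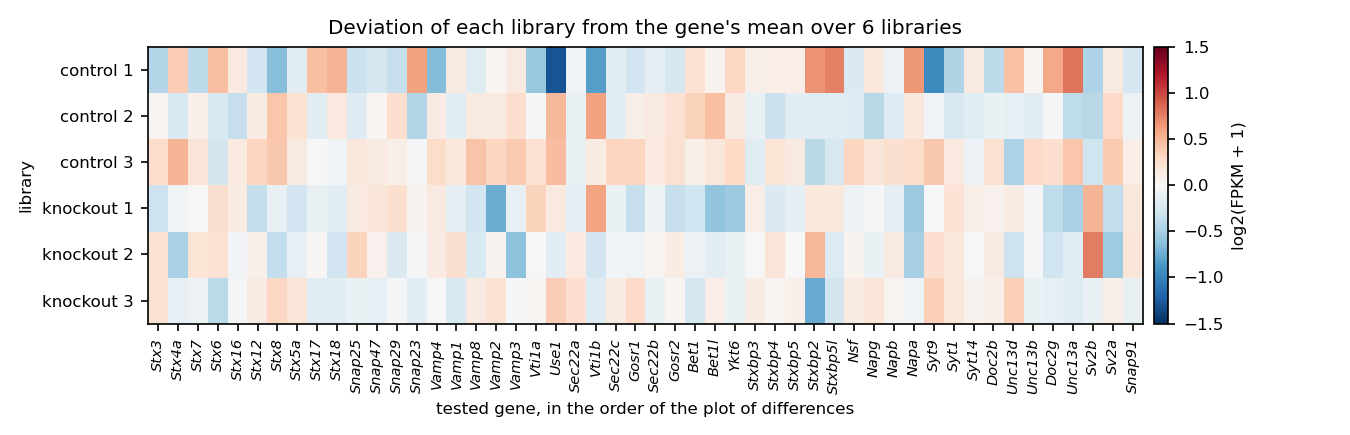
Deviation of each library from the gene's mean over 6 libraries, on the scale of log2(FPKM + 1), for the 50 fusion genes tested in role order; red is above and blue below the mean. In the row of control 1, Use1 and Syt9 are far below and Unc13a and Stxbp5l far above the mean, and Vamp2 is low in knockout 1 alone.

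Partners of the fusion machinery were taken from 2 further lists. Of 27 genes of docking, priming and the vesicle cycle that were tested, 1 was lower and none higher past an adjusted p of 0.05, with 13 positive and 14 negative differences and a median of -0.01. The one was Cplx3, complexin 3, a clamp and facilitator of SNARE bundles at ribbon synapses, at 18.5, 24.7 and 21.0 FPKM in control and 4.42, 4.29 and 5.76 in knockout. Its log2 change was -1.94, with an adjusted p of 0.0018 in limma. Cplx4, its paralog in photoreceptors, and Cplx2 had log2 differences of 0.11 and 0.08 and overlapping groups. Syp, which encodes the vesicle protein synaptophysin, and Slc17a7, the vesicular glutamate transporter gene, were, with Cplx4, the most abundant partners. Syp measured 143, 250 and 296 FPKM in control and 74.4, 122 and 284 in knockout, and Slc17a7 measured 80.3, 106 and 118 FPKM in control and 55.9, 98.7 and 127 in knockout. Both were lowest in knockout 1, as Vamp2 was, and their groups overlapped. Of 25 tethers and other partners of SNAREs, such as exocyst and HOPS subunits, none passed, with 15 positive and 10 negative differences and a median of 0.03.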

How the data were processed

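Poly(A) RNA of sorted cones was sequenced with a directional kit from 100 ng of RNA per sample, per the labels' protocols. The deposited values are FPKM for 6 libraries, made by the authors. TopHat2 2.1.0 and Cufflinks 2.2.1 are listed in the submitters' processing notes with HTSeq, DESeq2 and the build mm10, but no roles. For annotation and strand, the setting is not stated in the sources used here. The file holds protein-coding genes above 1 FPKM in at least 1 library, with a floor of 0.1 FPKM, and depth is unknown.

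Groups come from the genotype labels, which name no batch. Values were transformed as log2(FPKM + 1), genes averaging at least 1 FPKM were kept, and limma 3.58.1 in R 4.3.3 (eBayes with a variance trend, two-sided) was fitted on all 8627 genes, with Benjamini-Hochberg adjustment over all of them. Paralog shares were tested by exact permutation over libraries. Positions are from GENCODE vM21, in which all 56 genes matched. Tables used Python 3.11.15 and pandas 2.3.3.

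Members and lists were chosen with earlier results of these data known. Genes given per library were the most abundant and the smallest p of each role, and 14 synaptic genes listed by name. One gene that the symbols also matched is not reported here and enters no count of fusion genes. Other members are given by level, and Bet1, Bet1l, Use1, Vti1b, Syt5, Syt9 and Syt10 were picked out after their values were seen. Alternatives covered the pseudocount, the filter, scaling, the variance trend, the replicate block and each library left out.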

Additional observations from a re-analysis of the deposited data

How the results depend on the processing

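No fusion gene passed in any of the 14 alternatives, and the smallest adjusted p of one was 0.40 (Napa, without control 1, limma). Of the 50 tested, 26 kept the sign of their difference in every alternative that tested them. Those that changed it, besides the genes with ranges below, were Stx7, Stx8, Stx12, Stx16, Snap23, Snap29, Snap47, Vamp4, Use1, Gosr1, Gosr2, Vti1b, Sec22c, Stxbp2, Stxbp4 and Unc13d. The count at an unadjusted p under 0.05 in limma was 6, with 1 higher and 5 lower in the knockout. It became 2 among genes averaging at least 5 FPKM, where fewer genes were tested. With a library left out it ranged from 1 to 6. Median-ratio scaling of the libraries gave 2 higher and 5 lower, and scaling to equal FPKM sums gave 2 higher and 3 lower. Of all genes tested, 6.75% and 6.5% had such a p under these scalings. Cplx3 remained the single partner called. Without 1 library, log2 differences changed sign and ranged from -0.11 to 0.27 for Stx3, -0.091 to 0.27 for Stx6, -0.13 to 0.023 for Stxbp5, -0.39 to 0.11 for Stxbp5l, -0.031 to 0.24 for Nsf, -0.20 to 0.019 for Unc13b, -0.059 to 0.16 for Napb, -0.14 to 0.16 for Napg, -0.18 to 0.38 for Cplx4 and -0.12 to 0.28 for Cplx2. Differences in paralog share ranged from -6.17 to 0.187 points for Vamp2 and -0.992 to 4.40 for Unc13b. The cause was not tested. Same-numbered libraries did not deviate together (r = -0.118, -0.085 and -0.034), so the labels' numbers are not taken as pairs, and no library correlated best with its own number. With the replicate block, 0 fusion genes passed, 5 had an unadjusted p under 0.05, and 6 genes of the table passed in place of 9.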
